A study of Mus musculus with 43 samples.

Results

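The gene set described here covers a lysosomal route by which amino acids reach mTORC1, and transcription factors that mTORC1 phosphorylates. It holds the Rag GTPases Rragd, Rragc and Rraga, and the folliculin complex genes Flcn, Fnip1 and Fnip2. The others are the MiT/TFE transcription factors Tfeb, Tfe3 and Mitf, and Gpnmb, a target gene of these factors. The 10 genes were taken by symbol from both expression tables, in which 52636 genes are listed. They were picked by name with earlier results of these data in view, and the values behind the choice are not recorded, so their own changes are given as values, standard errors and counts without p-values.

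Rag GTPases sit on the lysosomal surface as heterodimers of RagA or RagB with RagC or RagD, and bring mTORC1 to the lysosome when amino acids are plentiful. Folliculin, bound to FNIP1 or FNIP2, is the GTPase activating protein for RagC and RagD, and in that state the Rags also present MiT/TFE factors to mTORC1, which phosphorylates them and keeps them in the cytoplasm. Unphosphorylated MiT/TFE factors enter the nucleus, bind the E-box CACGTG and switch on lysosomal and autophagy genes; RagD, folliculin and FNIP genes are themselves among their known targets. RNA levels carry no measure of the phosphorylation or location of these proteins.

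Bulk RNA sequencing covered 24 libraries of mouse colon organoids and 19 libraries of mouse colon fibroblasts. Colonoids (Apc wt/wt) and tumoroids (Apc flox/flox) were both grown from the colon of adult Vil-cre/ERT2 mice given tamoxifen in vivo, so that the inducible, villin-promoter driven Cre and the tamoxifen exposure were common to both and the Apc alleles differed by design. There were 3 lines of each genotype, each from its own mouse (colonoids M41, M40 and M1; tumoroids F11, M3 and M14), of which F11 came from a female mouse and the other lines from males, so that sex is not balanced between the genotypes. Every line was treated for 6 days with DMSO vehicle (Ve), 4 µM regorafenib (R4), 8 µM regorafenib (R8) or 1 µM 5-FU. The tumoroid 5-FU libraries are called colonoid in their sample titles, while their genotype labels and library names give them as Apc-deficient, which was followed here. Wild-type fibroblasts of C57BL/6 mice (lines M3, M3(2), M1(2) and M11) received, over 7 days, vehicle, regorafenib at 4 µM or at 10 µM (R10, without line M11), 1 µM autogramin-2 (A1) or regorafenib at 4 µM with autogramin-2 at 1 µM (R4A1). Regorafenib is a multi-kinase inhibitor used in colorectal cancer, 5-FU an antimetabolite, and autogramin-2 an inhibitor of the cholesterol transfer protein GRAMD1A that blocks autophagosome formation. The study asked how colon epithelium and its neighbouring fibroblasts respond to regorafenib and whether blocking autophagy alters this response.

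Expression is given as reads per gene scaled to 20000000 reads per library (CP20M). Recovered depths lay between 4371789 and 22368773 reads in 23 organoid libraries and between 7949937 and 12825870 reads in the fibroblasts. The R4 library of colonoid line M41 held only 512592 reads, so that 1 read there is worth 39.0 CP20M, and results are given without it where it decides a value or a call. Epithelial markers summed to between 110507 and 357359 CP20M in organoids, with fibroblast markers at 12 to 123 CP20M. In the fibroblast libraries the fibroblast markers summed to between 110998 and 186156 CP20M, with amounts of macrophage, endothelial and neural crest markers that differed between lines. In bulk RNA, fewer cells of a type and less RNA per cell cannot be told apart.

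In the GRCm38 build (GENCODE M21) the Rag genes lie on chromosome 4, Rragd at chr4:32983037-33022180, Rragc at chr4:123917446-123936997 and Rraga at chr4:86575668-86577285, all on the plus strand. Flcn is at chr11:59791408-59810016 on the minus strand, Fnip1 at chr11:54438199-54518235 on the plus strand and Fnip2 at chr3:79455974-79567796 on the minus strand. Tfeb is at chr17:47737030-47792419, Tfe3 at chrX:7762560-7775202, Mitf at chr6:97807052-98021349 and Gpnmb at chr6:49036546-49070929, all on the plus strand. Exons of Rragc overlap those of 4930535I16Rik on the opposite strand, and 5.04% of its 100-base windows also occur in that gene, so that its counts are less certain if strand was not used in counting. No 100-base window of the other 9 genes was found in a transcript of another gene.

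The E-box CACGTG, which reads the same on both strands, was searched in the RefSeq promoter windows (GRCm38.p6, 250 bases before to 50 after the start) of all 10 genes, 15 windows in all. It was present in 2 of the 15, against 7.15% of all 32851 promoter windows. The longer TCACGTGA, which contains CACGTG, was in none of the 15 and in 0.974% of all windows, and CATGTG on either strand was in none of the 15 and in 14.2% of all windows. The stretches from 150 to 51 bases before the start are shown for the members with the E-box, Rragc and Fnip1, and for Rragd, whose RNA changed most, with CACGTG in capitals.
Rragc, chr4:123917283-123917382, plus strand: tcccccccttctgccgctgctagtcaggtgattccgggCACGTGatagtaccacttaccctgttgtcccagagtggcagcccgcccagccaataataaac
Fnip1, chr11:54438029-54438128, plus strand: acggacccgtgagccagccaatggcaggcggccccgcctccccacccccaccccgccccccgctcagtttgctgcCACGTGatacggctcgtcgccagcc
Rragd, chr4:32982848-32982947, plus strand: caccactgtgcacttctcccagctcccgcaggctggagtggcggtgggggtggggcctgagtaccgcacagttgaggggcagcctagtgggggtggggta
The E-box began 112 bases before the start in Rragc and 75 bases before the start in Fnip1. A match is only a description of these letters, and its absence from the Rragd window says nothing about sequence elsewhere.

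Under vehicle, the order of the 10 genes by level differed between epithelium and fibroblasts. Per kilobase of exon, Rraga was the most abundant Rag gene of the epithelium, at 1457 CP20M per kb in colonoids and 1408 CP20M per kb in tumoroids, ahead of Rragc at 702 and 547 CP20M per kb. Rragd, the partner that can replace RagC, was at 7.73 CP20M per kb in colonoids and 4.00 CP20M per kb in tumoroids, the lowest of the Rag members there. In fibroblasts Rragc, at 943 CP20M per kb, and Rraga, at 924 CP20M per kb, were close to each other, and Rragd reached 249.9 CP20M per kb. Among the transcription factors, Tfe3 (135 and 146 CP20M per kb) exceeded Tfeb (73.3 and 81.5 CP20M per kb) in colonoids and tumoroids, while fibroblasts held 99 CP20M per kb of Tfe3 and 20.9 CP20M per kb of Tfeb. This gap depended on the length used. Per kilobase of the longest transcript, Tfe3 was at 198 and 213 CP20M in colonoids and tumoroids, close to Tfeb at 177 and 197 CP20M. In fibroblasts these values were 145 CP20M for Tfe3 and 50.6 CP20M for Tfeb. Mitf, best known from melanocytes and osteoclasts, was the scarcest of the 3 factors in the epithelium, with 0 to 59 CP20M over all organoid libraries, and stood at 88 to 187 CP20M in fibroblasts. Gpnmb, a glycoprotein of lysosomes and melanosomes, was nearly absent from the epithelium (0 to 7 CP20M, 0 in 15 of 24 libraries) and was the most abundant of the 10 genes in fibroblasts, at 3878 CP20M per kb (6825 CP20M per kb of the longest transcript). The 2 tables were scaled separately, and these levels were not tested against each other. Of the 10 genes, 8 passed the filter of 200 CP20M in at least 2 organoid libraries and 9 passed it in fibroblasts; Mitf was below it in both and Gpnmb in organoids.

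**Figure D1:**
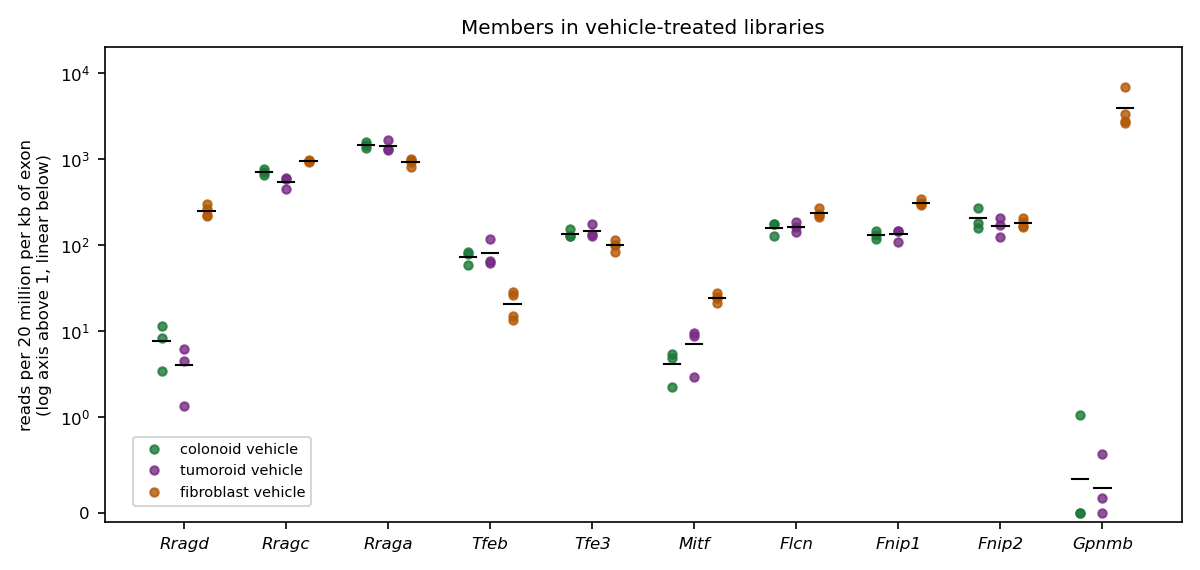
Reads per 20000000 per kilobase of exon (y axis, logarithmic above 1 and linear below) for the 10 genes in vehicle-treated colonoids (n = 3), tumoroids (n = 3) and fibroblasts (n = 4), with each library as a point and group means as black lines. Rragd and Gpnmb are low in the epithelium and high in fibroblasts, where they average 249.9 and 3878 CP20M per kb.

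Rragd, which pairs with RagA or RagB in place of RagC, rose with regorafenib in both genotypes and was highest at 8 µM. In colonoids it was at 43, 59 and 18 CP20M under vehicle (lines M41, M40 and M1), at 118, 257 and 206 CP20M at 4 µM, and at 878, 840 and 426 CP20M at 8 µM. In tumoroids it was at 7, 32 and 23 CP20M under vehicle (lines F11, M3 and M14), at 148, 141 and 219 CP20M at 4 µM, and at 710, 393 and 976 CP20M at 8 µM. The vehicle, 4 µM and 8 µM values did not overlap in either genotype, and every line was higher at 8 µM than at 4 µM. Of all 11320 genes tested, 25.2% differed from vehicle without overlap, in either direction, at 4 µM and 42.8% at 8 µM in colonoids, and 34.3% and 33.7% in tumoroids. Between 8 µM and 4 µM the shares were 16% in colonoids and 17.4% in tumoroids. Group means rose 4.84-fold at 4 µM and 17.9-fold at 8 µM in colonoids, and 8.19-fold and 33.5-fold in tumoroids.

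On the log2(CP20M + 20) scale, which understates changes of low genes, Rragd differed from vehicle by 1.84 ± 0.42 (SE) at 4 µM and 3.61 ± 0.42 at 8 µM in colonoids, and by 2.25 ± 0.42 and 4.09 ± 0.42 in tumoroids. Over both genotypes and doses it was called higher in the limma fit (log2 fold change 2.95 ± 0.25), as 1 of the 8 members tested, where 4.97% of all 11320 genes tested were called at FDR 0.001 and a fold change of at least 1.5. Between 8 µM and 4 µM the log2 fold change was 1.81 ± 0.29, with 0.451% of genes called. Rragd entered these fits only through the regorafenib libraries, since none of its vehicle values reached the filter of 200 CP20M, and so its call could not be other than higher. Its level in the shallow R4 library of line M41 rested on 3 reads, and without that library the colonoid change at 4 µM was 2.12. The call at 4 µM was lost in colonoids without line M40 (1.85) or M1 (1.47) and in tumoroids without any one tumoroid line (2.05 to 2.56), and the call between doses was lost without any one line other than M1 (1.58 to 1.93) and without the filter on low values. A pseudocount of 100 in place of 20 lowered the overall log2 fold change to 1.84, and the count model of edgeR raised it to 3.71. The 17 macrophage markers summed to 773 ± 75.9 CP20M (SD, n = 3) in vehicle-treated colonoids and 1784 ± 1343 CP20M at 8 µM, and to 585 ± 37.1 and 1370 ± 467 CP20M in tumoroids. At 4 µM the sums were 716 ± 116 CP20M in colonoids and 761 ± 169 CP20M in tumoroids. Colonoid lines M41, M40 and M1 held 731, 861 and 728 CP20M under vehicle and 3251, 1486 and 616 CP20M at 8 µM. Line M1 was thus below its own vehicle value, while every tumoroid line was above its own. The most abundant of them on average was Csf1r, the receptor of macrophage colony-stimulating factor, at 352 to 625 CP20M over the organoid libraries, and Cd68, whose product is a lysosomal glycoprotein, ran from 32 to 2659 CP20M. The 2659 CP20M of Cd68 lay in colonoid line M41 at 8 µM and made up most of its sum of 3251 CP20M, as no other organoid sum was that large. Mrc1 reached 239 CP20M, Ctss 113 CP20M, Spi1 79 CP20M, Laptm5 62 CP20M and Adgre1 40 CP20M, while Lyz2, C1qa, C1qb, Tyrobp and Trem2 did not exceed 4 CP20M and C1qc was at 0 in all 24. Spi1 and Adgre1 were each at 0 in 21 of the 24 libraries, and 1 read of the shallow library alone is worth 39.0 CP20M. The part of these markers in the Rragd values was not tested.

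**Figure D2:**
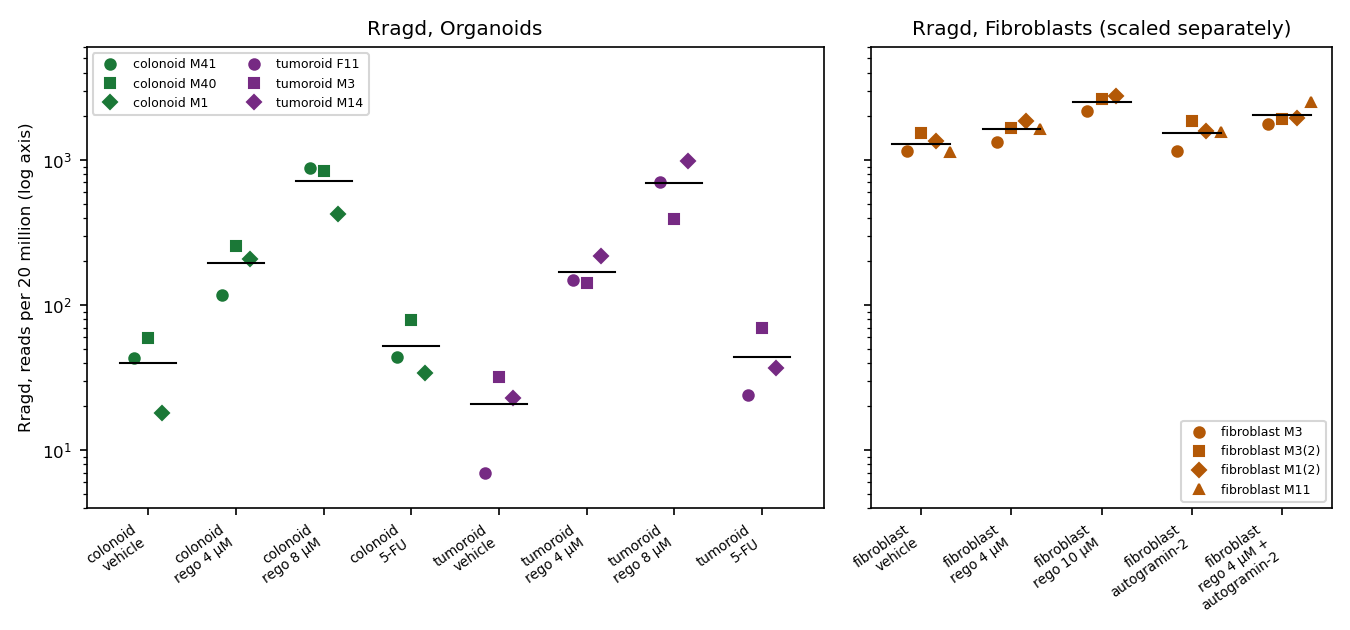
Rragd in each library (y axis, reads per 20000000, logarithmic) by group, with 1 symbol per line and group means as black lines. In both genotypes vehicle libraries stayed at 7 to 59 CP20M and 8 µM libraries at 393 to 976 CP20M, and in fibroblasts, scaled separately, values ran from 1128 to 2752 CP20M.

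No change of the other Rag genes passed the test in the epithelium. Rraga, the RagA subunit, was at 2556, 2187 and 2327 CP20M in vehicle-treated colonoids and at 2695, 2619 and 2754 CP20M at 8 µM, and in tumoroids at 2113, 2055 and 2668 against 3129, 2747 and 2876 CP20M. It was higher at 8 µM in all 6 lines without overlap of the groups, as were 2222 of all 11320 genes in colonoids and 1854 in tumoroids, and the log2 fold changes, 0.19 ± 0.23 and 0.36 ± 0.23, were not called. Rragc, the usual partner of RagA, was at 2352, 2531 and 2158 CP20M in vehicle-treated colonoids and at 2557, 2432 and 2896 CP20M at 8 µM, with a log2 fold change over both genotypes and doses of 0.18 ± 0.18. In tumoroids it went from 1488, 1969 and 2021 CP20M to 3034, 2007 and 2438 CP20M, a log2 fold change of 0.44 ± 0.30. Both genes were lowest in the shallow R4 library of line M41, with 976 CP20M of Rragc and 1132 CP20M of Rraga. At 4 µM in colonoids all genes together had a median of -0.22 on the log2 scale, or -0.05 after TMM scaling, and the values of Rragc (-0.26 ± 0.30) and Rraga (-0.28 ± 0.23) there stand against that shift. Both turned sign without the shallow library, to 0.24 for Rragc and 0.09 for Rraga. Rragb, the second RagA-type gene, was at 0 to 8 CP20M in organoids and 20 to 140 CP20M in fibroblasts.

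Of the folliculin complex, Fnip1 was higher with regorafenib in all 6 lines at both doses. Colonoids had 829, 942 and 1033 CP20M of Fnip1 under vehicle, 859, 1624 and 1819 CP20M at 4 µM and 2091, 1824 and 1451 CP20M at 8 µM. Tumoroids had 774, 1027 and 1043 CP20M under vehicle, 1235, 1419 and 1557 CP20M at 4 µM and 1068, 1199 and 1430 CP20M at 8 µM. Regorafenib values thus lay above the vehicle values without overlap in tumoroids at both doses and in colonoids at 8 µM. So did 1592 and 1854 of all 11320 genes in tumoroids at 4 and 8 µM, and 2222 in colonoids at 8 µM. In either direction the shares were 34.3%, 33.7% and 42.8%. The increase in colonoids at 8 µM (log2 fold change 0.91 ± 0.24) passed the test, as 1 of 3 members called where 13.3% of all genes were called, and lost it without colonoid line M40 (0.90) or tumoroid line M3 (0.91). Over both genotypes and doses the value was 0.60 ± 0.15, which was not called at FDR 0.001, and 0.68 and called without the shallow library. At 4 µM in colonoids it was 0.54 ± 0.24 and not called, and 0.87 and called without the shallow library.

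No change of Flcn or Fnip2 under regorafenib passed the test. Flcn ranged from 556 to 767 CP20M in vehicle-treated colonoids and from 770 to 803 CP20M at 8 µM, and from 618 to 796 against 669 to 996 CP20M in tumoroids. It was higher in 6 of 6 lines at 4 µM and in 5 of 6 at 8 µM, with a log2 fold change of 0.25 ± 0.11 over both genotypes and doses. The largest rise at 4 µM, from 556 to 898 CP20M in colonoid line M41, rested on 23 reads of the shallow library. Fnip2 was higher in 2 of 6 lines at 4 µM and in 4 of 6 at 8 µM, with a log2 fold change of 0.03 ± 0.15.

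Of the MiT/TFE factors, Tfeb fell in colonoids at 8 µM, and no other organoid regorafenib change of Tfeb or Tfe3 passed the test in the limma fit without the line as a block. Tfeb was at 331, 475 and 441 CP20M in vehicle-treated colonoids, at 157, 202 and 206 CP20M at 4 µM and at 162, 134 and 289 CP20M at 8 µM. In tumoroids it was at 668, 352 and 366 CP20M under vehicle, at 199, 291 and 199 CP20M at 4 µM and at 212, 403 and 218 CP20M at 8 µM. All 6 lines were lower at 4 µM and 5 of 6 at 8 µM, and line M3 at 8 µM, the exception, was above its own vehicle value. The fall in colonoids at 8 µM (log2 fold change -1.07 ± 0.32) passed the test. It was lost without line M41 (-1.13), line M40 (-0.76) or tumoroid line M14 (-1.07), and without the filter on low values (-1.07). At 4 µM the log2 fold change was -1.06 ± 0.32 in colonoids, not called in the fit without lines and called with the line as a block (-1.06), -0.94 and not called without the shallow library, and -0.91 ± 0.32 in tumoroids, not called. The value over both genotypes and doses, -0.93 ± 0.20 (-0.90 without the shallow library), was not called at FDR 0.001. DESeq2 called Tfeb over both genotypes and doses and at 4 µM in tumoroids, and edgeR called neither. In the shallow library Tfeb rested on 4 reads.

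Tfe3 was lower than vehicle in all 6 organoid lines at both doses. Colonoids held 1172, 1408 and 1174 CP20M of Tfe3 under vehicle, 469, 1063 and 980 CP20M at 4 µM and 819, 907 and 801 CP20M at 8 µM. Tumoroids held 1185, 1254 and 1608 CP20M under vehicle, 1112, 1129 and 1144 CP20M at 4 µM and 994, 977 and 1016 CP20M at 8 µM. The groups did not overlap in any of these comparisons, but 1998 of all 11320 genes tested also lay below vehicle without overlap at 4 µM and 2619 at 8 µM in colonoids, and 2294 and 1961 in tumoroids. Its log2 fold change over both genotypes and doses, -0.47 ± 0.14 (-0.37 without the shallow library), was smaller than a 1.5-fold change and was not called. Without the shallow library the colonoid value at 4 µM was -0.28, against -0.65 ± 0.23 with it. Mitf stayed between 0 and 59 CP20M and was not tested.

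**Figure D3:**
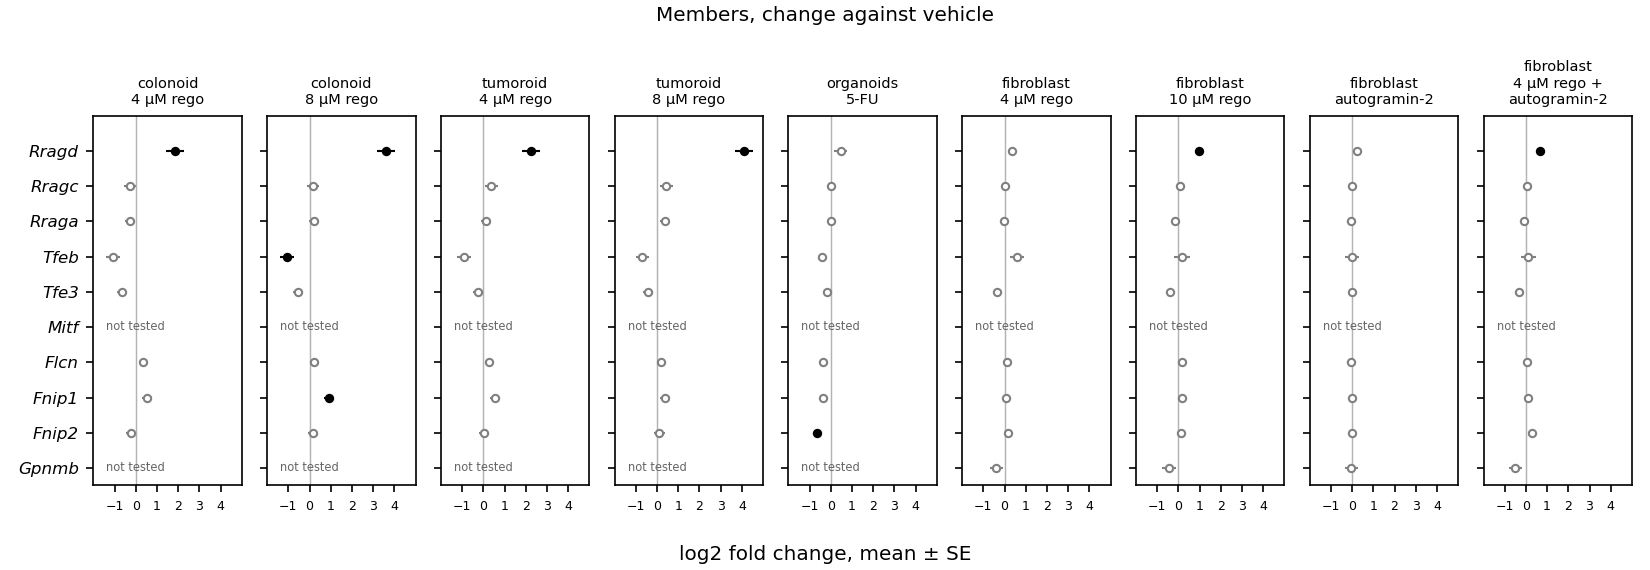
Log2 fold change against vehicle (x axis, mean ± SE) for the 10 genes in 9 comparisons, with filled points for genes that passed the test. Rragd is filled in the 4 organoid regorafenib panels, at 1.84 to 4.09, and in the 2 fibroblast panels at 0.96 and 0.64; Mitf, and Gpnmb in organoids, were below the filter.

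No member was called between the Apc genotypes in vehicle or in the response to regorafenib. In vehicle, 0 of 8 members were called between tumoroids and colonoids in limma, edgeR or DESeq2, with 0 of 8 at an unadjusted p under 0.05, and 0.141% of all genes were called. Rragc was lower in tumoroids without overlap (1488, 1969 and 2021 against 2352, 2531 and 2158 CP20M), as were 1210 of all 11320 genes (26.8% in either direction), with a log2 fold change of -0.37 ± 0.30. Tumoroids and colonoids were not fitted against each other under a drug. There, the tumoroid mean of Tfe3 was 1.35 times the colonoid mean at 4 µM and 1.18 times at 8 µM, both without overlap, as for 1583 and 2025 genes in that direction (18% and 24.2% of all genes in either direction). The ratio at 4 µM rested in part on the shallow library, at 469 CP20M. Without it the colonoid values there were 1063 and 980 CP20M, against 1112, 1129 and 1144 CP20M in tumoroids. At 8 µM the tumoroid mean was 0.689 times the colonoid mean for Fnip1 and 0.791 times for Fnip2, and under 5-FU 0.882 times for Flcn, again without overlap, as for 712 genes at 8 µM and 803 under 5-FU in that direction (15.6% in either direction under 5-FU). When the regorafenib responses of tumoroids and colonoids were compared, 0 of 8 members were called in limma, edgeR or DESeq2, with 0 of 8 at an unadjusted p under 0.05, where 0.00883% of all genes were called. The differences (tumoroid minus colonoid response) ran from -0.26 ± 0.30 for Fnip1 to 0.45 ± 0.37 for Rragc and 0.45 ± 0.51 for Rragd.

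Under 5-FU, Fnip2 of the folliculin complex fell in the epithelium. It went from 1321, 1509 and 2281 CP20M to 765, 1168 and 975 CP20M in colonoids, and from 1039, 1715 and 1423 CP20M to 958, 955 and 919 CP20M in tumoroids. Fnip2 was lower in all 6 lines without overlap in either genotype, as were 854 genes in colonoids and 1284 in tumoroids (16.4% and 19.8% of all genes in either direction), and its fall (log2 fold change -0.65 ± 0.16) made it the 1 member called of 8, where 2.35% of all 11562 genes tested were called. The call was lost without colonoid line M40 (-0.76) or M1 (-0.55), without tumoroid line M3 (-0.57) or M14 (-0.63), and without the filter on low values. Fnip1 was lower in 6 of 6 lines (log2 fold change -0.39 ± 0.16) and Flcn in 5 of 6 (-0.37 ± 0.11), and neither passed the test. Tfeb was lower in 6 of 6 lines under 5-FU as well (-0.41 ± 0.21) and Tfe3 in 5 of 6 (-0.16 ± 0.15), with overlapping groups and neither called. Rragd stayed at 24 to 79 CP20M under 5-FU, with a log2 fold change of 0.46 ± 0.30 that was not called, although each line was above its own vehicle value.

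From the lowest to the highest mean, Rragd in organoids ran through tumoroid vehicle (20.7 ± 12.7 CP20M, SD, n = 3), colonoid vehicle (40 ± 20.7), tumoroid 5-FU (43.7 ± 23.7), colonoid 5-FU (52.3 ± 23.6), tumoroid 4 µM (169 ± 43.2), colonoid 4 µM (194 ± 70.3), tumoroid 8 µM (693 ± 292) and colonoid 8 µM (715 ± 251). Neighbours in this order were apart only between 5-FU and 4 µM regorafenib and between 4 µM and 8 µM; the other neighbours overlapped.

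In fibroblasts Rragd was abundant under vehicle and rose further at the higher regorafenib dose and with the combination. Lines M3, M3(2), M1(2) and M11 held 1146, 1541, 1356 and 1128 CP20M under vehicle and 1332, 1667, 1849 and 1641 CP20M at 4 µM. At 10 µM the 3 lines treated held 2185, 2643 and 2752 CP20M, all above every vehicle and 4 µM value. Of all 11032 genes, 1345 likewise lay above every vehicle value and 549 above every 4 µM value. In either direction these shares were 28.3% and 9.97%. With 4 µM regorafenib and autogramin-2 together the 4 lines held 1767, 1903, 1949 and 2492 CP20M, and with autogramin-2 alone 1156, 1852, 1579 and 1553 CP20M. The rise at 10 µM (log2 fold change 0.96 ± 0.16, 1.95-fold in means) passed the test, as 1 of 9 members, where 7.33% of 11032 genes tested were called (13.8% with the line as a block). The rise under the combination (0.64 ± 0.15) also passed, where 1.66% were called (6.99% with the line as a block), but was lost without any one line (0.48 to 0.75) and without the filter on low values. At 4 µM alone the value was 0.33 ± 0.15 and 0 of 9 members were called by limma, edgeR or DESeq2, with 2 at an unadjusted p under 0.05; 1.02% of all genes were called, or 7.22% with the line as a block.

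Dose and autogramin-2 were also compared directly in fibroblasts. Rragd at 10 µM exceeded 4 µM by 0.64 ± 0.16 on the log2 scale, which was not called in the fit without lines (0.145% of genes called) and was called with the line as a block (0.65, with 6.02% of genes called). Adding autogramin-2 to 4 µM regorafenib gave 0.32 ± 0.15 for Rragd, and 0 of 9 members were called by limma, edgeR or DESeq2, with 0 at an unadjusted p under 0.05 and 0.00906% of all genes called (1.43% with the line as a block). Autogramin-2 alone gave member changes between -0.08 ± 0.07 (Rraga) and 0.24 ± 0.15 (Rragd). No gene of 11032 was called for it by limma, edgeR or DESeq2, and 120 genes had an unadjusted p under 0.05 in limma. In order of the mean, Rragd ran from vehicle (1293 ± 195 CP20M, n = 4) through autogramin-2 (1535 ± 287), 4 µM (1622 ± 214) and the combination (2028 ± 319) to 10 µM (2527 ± 301, n = 3), and each neighbouring pair overlapped.

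Tfe3 was lower in regorafenib-treated fibroblasts too. The vehicle libraries held 775, 916, 926 and 1051 CP20M, the 4 µM libraries 723, 757, 653 and 744 CP20M, the 10 µM libraries 713, 653 and 725 CP20M and the combination 677, 757, 717 and 755 CP20M. None of the 3 treated groups overlapped the vehicle group, and of all 11032 genes tested 392 also lay below it without overlap at 4 µM, 1782 at 10 µM and 716 with the combination (6.41%, 28.3% and 10.2% in either direction). Autogramin-2 alone left 786, 891, 953 and 956 CP20M. The log2 fold changes, -0.34 ± 0.09, -0.38 ± 0.09 and -0.32 ± 0.09, were smaller than a 1.5-fold change and were not called. Rragc (2959 to 3506 CP20M over the 19 libraries), Rraga (1269 to 1640), Flcn (919 to 1256), Fnip1 (2042 to 2567) and Fnip2 (1292 to 2204) had log2 fold changes against vehicle between -0.18 and 0.26 in the 4 treatments, none called.

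Tfeb and Gpnmb varied with the fibroblast line, as did markers of other cell types. Tfeb was at 77, 150, 84 and 163 CP20M under vehicle and at 94, 266, 205 and 187 CP20M at 4 µM, higher in 4 of 4 lines with overlapping groups (log2 fold change 0.57 ± 0.34, not called). It entered the fit only because 2 of the 4 µM libraries, M3(2) and M1(2), exceeded 200 CP20M. The 4 endothelial markers, of which Cdh5 was the most abundant (400 to 8922 CP20M), summed to 1164, 10134, 1939 and 2730 CP20M in the same lines under vehicle and to 1813, 26578, 6040 and 7592 CP20M at 4 µM; their part in the Tfeb values was not tested. At 10 µM Tfeb was at 132, 147 and 114 CP20M and the endothelial sum at 1394, 6472 and 1677 CP20M. With autogramin-2 alone, lines M3, M3(2) and M1(2) held 72, 91 and 134 CP20M of Tfeb and 914, 6991 and 1933 CP20M of the endothelial markers. With the combination they held 81, 191 and 84 CP20M of Tfeb and 2164, 16961 and 1871 CP20M of these markers. In line M11 Tfeb was at 179 CP20M with autogramin-2 alone and at 175 CP20M with the combination, between its vehicle and 4 µM values. Over all 4 lines the endothelial sum averaged 2983 ± 2723 CP20M (SD) with autogramin-2 alone and 5754 ± 7473 CP20M with the combination.

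Gpnmb was at 18149, 17231 and 21466 CP20M in lines M3, M3(2) and M1(2) under vehicle and at 44191 CP20M in line M11. At 4 µM the lines held 14677, 15416, 17437 and 25365 CP20M, at 10 µM 16046, 17693 and 18194 CP20M, with autogramin-2 16776, 16732, 20547 and 46230 CP20M, and with the combination 14648, 15349, 17183 and 19180 CP20M. Every line was lower at 4 µM and under the combination than under vehicle, M11 by most, and the groups overlapped. The log2 fold changes were -0.39 ± 0.31 at 4 µM, -0.43 ± 0.34 at 10 µM (-0.21 with the line as a block) and -0.50 ± 0.31 with the combination, none called. Without line M11 they were -0.26, -0.13 and -0.27. Summed over 17 macrophage markers, led by Lyz2 (186 to 4214 CP20M), lines M3, M3(2), M1(2) and M11 held 3058, 1235, 2258 and 8123 CP20M under vehicle, 1427, 758, 1129 and 2749 CP20M at 4 µM and 773, 487, 581 and 846 CP20M with the combination. The 3 lines at 10 µM held 714, 651 and 671 CP20M of these markers. With autogramin-2 alone the sums ran from 880 CP20M in line M3(2) to 5223 CP20M in line M11. The M11 sum was thus below its vehicle value, while its Gpnmb value was above. The 6 melanocyte markers summed to 490, 290, 1812 and 4984 CP20M in the same lines under vehicle and to 604, 282, 1736 and 5009 CP20M with the combination. Nearly all of this was Sox10, a factor also expressed by glia of the neural crest (237 to 5510 CP20M), while Pmel was at 16 to 68 CP20M and Tyr, Tyrp1, Dct and Mlana did not exceed 18 CP20M. Other neural crest and glial genes were also highest in M11 under vehicle, with Gfap at 383, 194, 786 and 3868 CP20M and S100b at 70, 36, 239 and 356 CP20M in the same order of lines. Gfap was at 198, 206, 724 and 1634 CP20M at 4 µM and at 135, 179, 463 and 1532 CP20M with the combination. With autogramin-2 alone it was at 312, 184, 696 and 3701 CP20M. S100b was at 59, 31, 244 and 224 CP20M at 4 µM and at 62, 20, 171 and 317 CP20M with the combination. The 6 osteoclast markers summed to 1752 to 4156 CP20M over the fibroblast libraries, nearly all from Ctsk, and were lowest in M11, and the 6 mast cell markers to 15 to 95 CP20M. The part of these cell types in the Gpnmb values was not tested. In organoids, the osteoclast sum was 432 to 923 CP20M (mostly Acp5), the melanocyte sum 40 to 178 CP20M (mostly Pmel) and the mast cell sum 0 to 122 CP20M.

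**Figure D4:**
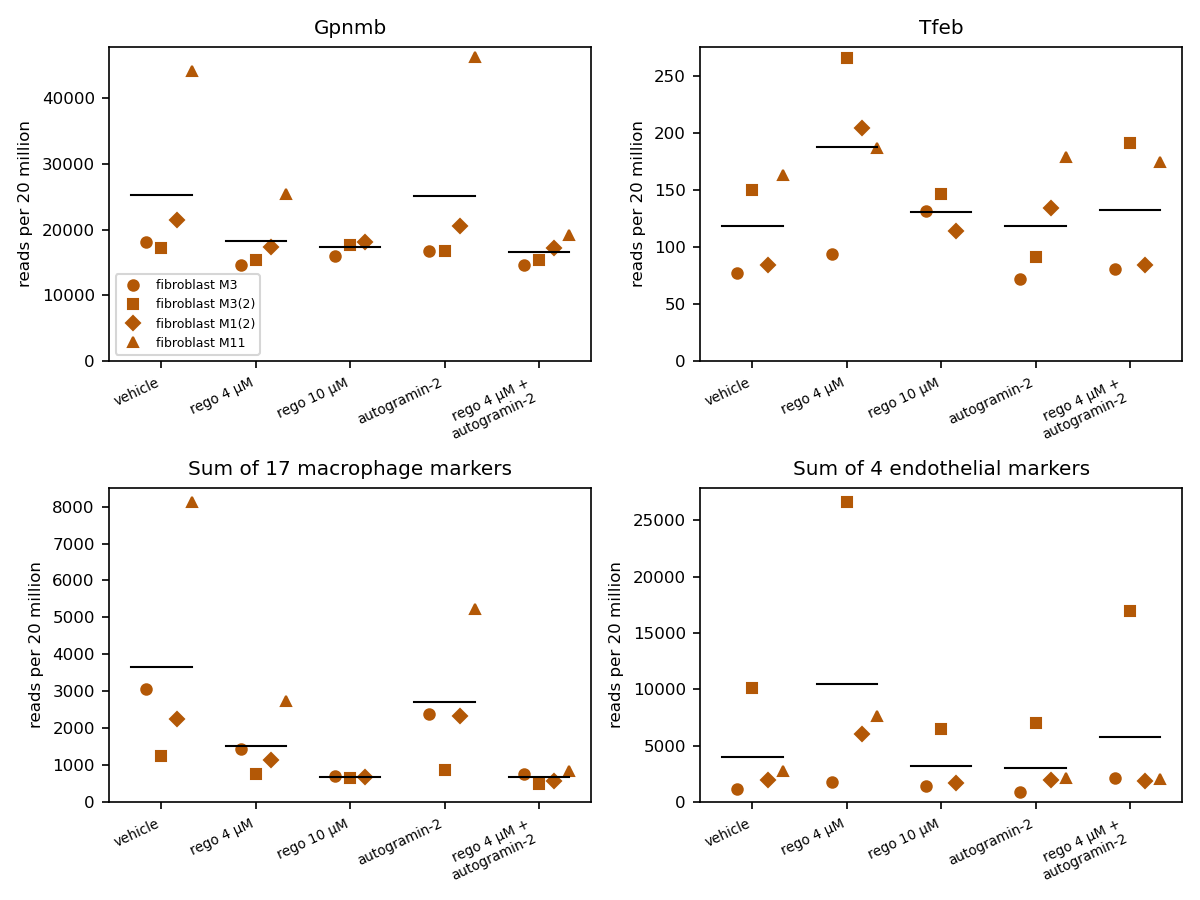
Gpnmb, Tfeb and the summed macrophage (17 genes) and endothelial (4 genes) markers in each fibroblast library (y axes, reads per 20000000, from 0), with 1 symbol per line and group means as black lines. Line M11 stands above the others for Gpnmb (44191 CP20M under vehicle) and macrophage markers (8123 CP20M), and line M3(2) for endothelial markers (26578 CP20M at 4 µM).

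The rest of the pathway was followed in 10 lists of 92 further genes, of which 90 were found in the tables and 84 passed the filter. In organoids under regorafenib, 11 of the 84 rose and 1 fell in the limma fit over both genotypes and doses, where 2.82% of all genes rose and 2.16% fell. The count was 21 without the shallow library (10% of all genes called), 4 to 16 without any one line, lowest without tumoroid line F11 or M14, and 19 with edgeR (7.85%).

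Of 23 lysosomal target genes of the MiT/TFE factors 6 rose and none fell, and the list's median log2 fold change was 0.65 against -0.10 over all genes. Ctsl, a lysosomal cysteine protease, rose by 1.17 ± 0.12 (adjusted p = 1.53e-05, higher in all 12 comparisons of a line and dose with its vehicle), Ctsd, the aspartic protease cathepsin D, by 1.00 ± 0.15 (adjusted p = 0.00022) and Psap, the precursor of the saposins, by 0.98 ± 0.10 (adjusted p = 1.57e-05). Ctsl was at 6167, 5475 and 6033 CP20M in vehicle-treated colonoids and at 14548, 11390 and 13624 CP20M at 8 µM, and in tumoroids at 2824, 4495 and 4244 against 8835, 7677 and 9557 CP20M. No regorafenib library overlapped the vehicle libraries of its genotype for Ctsl. Of all 11320 genes, 850 and 2222 were likewise higher without overlap at 4 and 8 µM in colonoids, and 1592 and 1854 in tumoroids. The macrophage marker sums given with Rragd were higher on average at 8 µM than under vehicle in both genotypes, though lower in colonoid line M1. These sums include Cd68, itself a gene of a lysosomal glycoprotein, which made up most of the highest sum. The epithelial marker sum was 227335 ± 28113 CP20M (SD, n = 3) under vehicle and 184887 ± 17147 CP20M at 8 µM in colonoids, and 145347 ± 24183 and 125653 ± 25677 CP20M in tumoroids. Their part in the lysosomal and V-ATPase values was not tested.

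V-ATPase subunits, which acidify the lysosome, were higher for 3 of 15 tested, with a list median of 0.46. Atp6v1a, the catalytic A subunit, rose by 1.11 ± 0.13 (adjusted p = 2.68e-05), Atp6v1e1 by 0.82 ± 0.10 (adjusted p = 3.66e-05) and Atp6v1c1 by 0.59 ± 0.09 (adjusted p = 0.000215). Atp6v1a stood at 2850 ± 283 CP20M in vehicle-treated colonoids and at 7773 ± 918 CP20M at 8 µM, and at 2959 ± 437 against 7840 ± 1405 CP20M in tumoroids (SD, n = 3 each). Of the 10 autophagy target genes 1 rose, Vps18, a subunit of the HOPS tethering complex (1.02 ± 0.13, adjusted p = 7.68e-05), and the list median was 0.12.

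In the signalling part of the pathway single genes were called. Sesn3, whose product is a sestrin that inhibits the Rag activator GATOR2, rose by 1.21 ± 0.20 (adjusted p = 0.000445). Mlst8, a subunit shared by both mTOR complexes, fell (-0.71 ± 0.11, adjusted p = 0.000432), in all 12 line comparisons. Deptor, an mTOR inhibitor, fell at 4 µM in colonoids (-1.10 ± 0.28, adjusted p = 0.0304, a call lost without the shallow library) and tumoroids (-1.24 ± 0.28, adjusted p = 0.0321). Rptor, the mTORC1 scaffold, rose at 8 µM in colonoids (0.59 ± 0.15, adjusted p = 0.0147), and Itfg2, of the KICSTOR complex, fell at 8 µM in tumoroids (-0.80 ± 0.19, adjusted p = 0.0272). None of the Ragulator and SLC38A9, GATOR2, or calcineurin and TRPML1 genes tested was called for regorafenib in organoids by limma. In colonoids, edgeR and DESeq2 both called Ppp3ca, a calcineurin catalytic subunit, higher at 4 and 8 µM, and Mcoln1, the TRPML1 channel, and Wdr59, of GATOR2, higher at 8 µM, and DESeq2 also called Mcoln1 higher at 4 µM in tumoroids.

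By dose and genotype, 8 of the 84 pathway genes were called at 4 µM and 21 at 8 µM in colonoids, and 8 and 14 in tumoroids, where 7.01%, 13.3%, 2.82% and 4.88% of all genes were called. Without the shallow library these counts were 17, 32, 20 and 30, where 9.58%, 22.3%, 9.49% and 11.7% of all genes were called, and without single lines they ran from 2 to 10, 11 to 22, 0 to 21 and 1 to 30, with 0 at 4 µM in tumoroids without any one of the 3 tumoroid lines. At 8 µM in colonoids, 11 of 23 lysosomal target genes rose, led by Gusb, the enzyme beta-glucuronidase (1.53 ± 0.19, adjusted p = 0.000289), Gla, the enzyme alpha-galactosidase A (1.34 ± 0.36, adjusted p = 0.0233), and Ctsd (1.32 ± 0.24, adjusted p = 0.00236). Atp6ap2, an accessory subunit of the V-ATPase, rose there as well (1.01 ± 0.28, adjusted p = 0.0243), and the autophagosome protein gene Map1lc3b fell (-0.89 ± 0.21, adjusted p = 0.0109). In tumoroids at 8 µM, Ctsl (1.19 ± 0.20, adjusted p = 0.004), the sterol-binding Npc2 (1.14 ± 0.15, adjusted p = 0.00111) and Ctsd (1.03 ± 0.24, adjusted p = 0.0237) led 6 lysosomal target genes, and Atp6v1d rose by 0.85 ± 0.19 (adjusted p = 0.0216). Between 8 µM and 4 µM only Gusb was called (0.72 ± 0.14, adjusted p = 0.0348), and this call was lost without any one line.

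Under 5-FU, 2 of 84 pathway genes were called, where 2.35% of all genes were called, a share close to that of the pathway. They were Sesn3 higher (0.91 ± 0.22, adjusted p = 0.0272) and Lars, the leucyl-tRNA synthetase gene, lower (-0.64 ± 0.13, adjusted p = 0.0151), and neither was called without colonoid line M1 or tumoroid line M3 or M14. In the genotype comparison in vehicle and in the genotype difference of the response, 0 of 84 were called by limma, edgeR or DESeq2, with 11 and 1 at an unadjusted p under 0.05, as were 1717 and 349 of all 11320 genes.

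In fibroblasts 3 of 84 pathway genes were called at 10 µM, a smaller share than the 7.33% of all genes called there. Ctsf, a lysosomal cysteine protease, rose by 0.98 ± 0.18 (adjusted p = 0.00239) and Neu1, the lysosomal sialidase, by 0.59 ± 0.12 (adjusted p = 0.0036), while Sqstm1, the autophagy receptor p62, fell (-0.69 ± 0.11, adjusted p = 0.000926). The count was 1 without line M3(2) and 2 without M1(2) or M11. Sqstm1 stood at 23040 ± 2984 CP20M under vehicle (SD, n = 4) and 14241 ± 819 CP20M at 10 µM (n = 3), lower in 3 of 3 lines. Ctsf was also the 1 pathway gene of 84 called at 4 µM, where 1.02% of all genes were called (0.72 ± 0.17, adjusted p = 0.0416) and with the combination, where 1.66% were called (0.66 ± 0.17, adjusted p = 0.0472); the first was lost without lines M3, M3(2) or M1(2), the second without any one line. Its values were 512, 771, 861 and 835 CP20M under vehicle and 1126, 1253, 1233 and 1254 CP20M at 4 µM. The lysosomal target list had a median of 0.27 at 10 µM, against -0.04 over all genes. The macrophage marker sum was 3668.5 ± 3062 CP20M under vehicle (SD, n = 4) and 678.7 ± 32.2 CP20M at 10 µM (n = 3, without line M11). Its part in the pathway values was not tested. For autogramin-2 alone, its addition to 4 µM regorafenib, and 10 µM against 4 µM, 0 of 84 were called by limma, edgeR or DESeq2, with 0, 6 and 12 at an unadjusted p under 0.05, as were 120, 622 and 1342 of all 11032 genes. With the line as a block, 0, 158 and 664 of all genes were called in these comparisons. The pathway genes called under that block are not counted here, so these zeros hold only for the fits named.

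**Figure D5:**
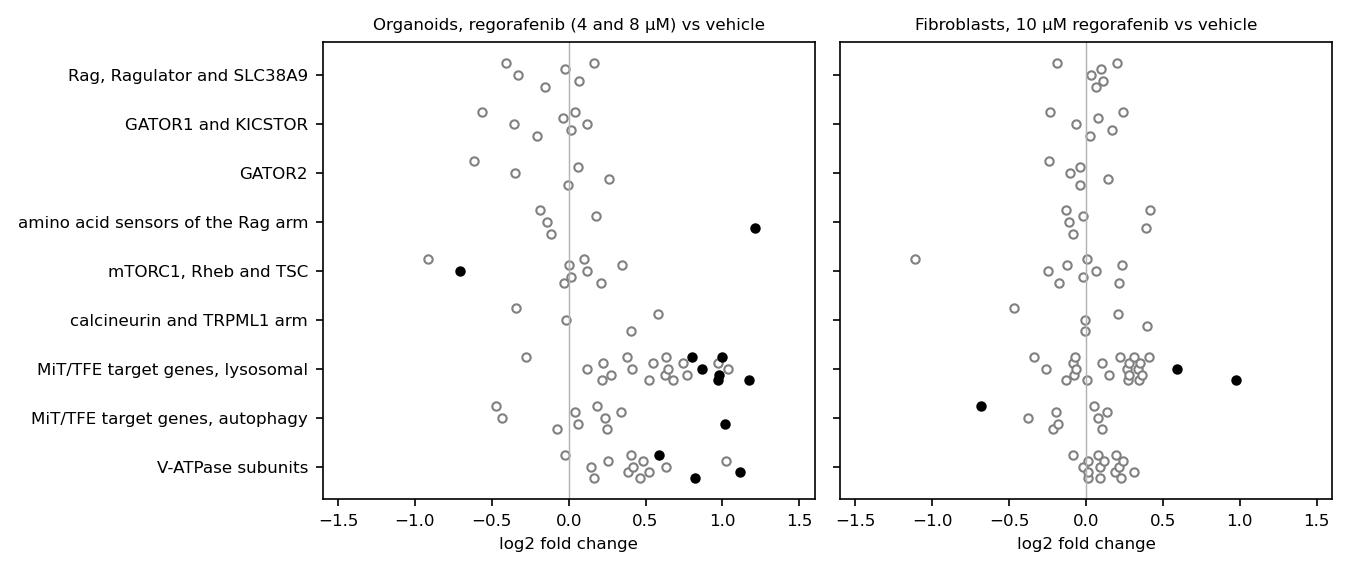
Log2 fold change (x axis) of the 84 tested pathway genes by list, in organoids under regorafenib at 4 and 8 µM against vehicle (left) and in fibroblasts at 10 µM against vehicle (right), with filled points for genes that passed the test. In organoids the filled points are 11 higher and 1 lower, mostly in the lysosomal and V-ATPase lists, and in fibroblasts 2 higher and 1 lower.

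Over the 24 organoid libraries, the 5 genes whose log2(CP20M + 20) values followed Rragd most closely of 11561 compared were Npc2 (Pearson r = 0.966), Ppm1h (0.943), Ttll1 (0.942), Atp6v1a (0.938) and Mroh1 (0.933), of which Npc2 and Atp6v1a belong to the lists above. Fnip1 had r = 0.763 and Tfeb r = -0.717 to Rragd. Over the 19 fibroblast libraries the closest of 11031 genes were Enpp5 (0.923), Tmed4 (0.908), Cpox (0.884), Nudt18 (0.88) and Shc2 (0.883). Rragc had r = 0.666 there and Tfe3 r = -0.535. These are descriptions over libraries that share lines and treatments.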

How the data were processed

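The deposited values are a signal in CP20M: the authors trimmed reads (Trimmomatic 0.36), aligned them to GRCm38 (STAR 2.5.3a), counted them per gene (HTSeq 0.9.1, versions from the submitters' processing notes) and scaled each library to 20000000 reads, rounded up. The paper's captions define CP20M per kilobase of transcript. The deposited values were read here as not divided by gene length, because they step in whole reads. Values per kilobase in this report were divided by exon length here. The sources used here name different library kits, and the strand setting of the counting is not given in them. Whole reads were recovered from the value steps in each library (99.6% to 100% of values whole within the rounding of 1 CP20M) and set the depths.

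Groups followed the genotype and treatment labels and library names. In limma 3.58.1 (R 4.3.3), log2(CP20M + 20) was fitted with a coefficient per group over 18 organoid libraries (24 for 5-FU) and 19 fibroblast libraries, for genes with 200 CP20M in at least 2 libraries. Benjamini-Hochberg adjustment ran over all genes tested. Calls needed FDR 0.05 and a fold change of at least 1.5, except FDR 0.001 for regorafenib over both genotypes and doses, FDR 0.01 and a log2 fold change of 1 for genotype in vehicle, and FDR 0.05 alone for the genotype difference. The fits were tested on simulated data. Libraries of a line come from 1 animal: their deviations from group means correlated at 0.429 (18 organoid libraries) and 0.719 (fibroblasts), and the line was added as a block as an alternative. Between lines the values were -0.213 and -0.229. Centring on group means makes these negative whenever libraries of a line correlate, so they are no separate evidence. The other alternatives were edgeR 4.0.16 and DESeq2 1.42.0 on recovered reads, TMM scaling, other pseudocounts, no filter, other FDR limits, all 24 organoid libraries, and leaving out the shallow library or each line. No 2 libraries of a group were copies.

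The members, pathway lists, markers and tests were chosen with earlier results of these data known. Named genes were the members, up to 3 called genes per list, direction and comparison with the largest change, the 5 genes most like Rragd (the member with the largest change in both tables), and the most abundant marker of a list. Other single markers were named after their values were seen. Protein sequences were not used here, and the sum of 1 marker list is not reported here.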

Additional observations from a re-analysis of the deposited data

Results flagged for a closer look

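In groups of 4 fibroblast lines, a value was picked out where its gap to the nearest other value, as a share of the group's range, exceeded Dixon's critical value. This happened in 4 of 40 groups looked at (10 genes, 4 treatments). Chance gives about 1 in 20 for independent groups. These groups hold the same 4 lines under each treatment, so the count cannot be set against that rate. Line M11 was high for Gpnmb under vehicle (44191 CP20M) and under autogramin-2 (46230 CP20M), and high for Flcn under autogramin-2 (1115 CP20M, against 930 to 955 CP20M in the other lines). Line M1(2) was high for Rraga at 4 µM regorafenib (1640 CP20M, against 1382 to 1417 CP20M in the other lines). The macrophage (8123 CP20M) and melanocyte (4984 CP20M, mostly Sox10) marker sums of line M11 under vehicle were also the highest of the 4 lines, as were Gfap (3868 CP20M) and S100b (356 CP20M), and their part was not tested.

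At 4 µM regorafenib Tfeb lay below vehicle in every organoid line and above it in every fibroblast line, though none of these changes was called in the limma fit without the line as a block; DESeq2 called the change in tumoroids. Its mean was 0.453 times the vehicle mean in colonoids and 0.497 times in tumoroids, lower in 6 of 6 lines, and 1.59 times the vehicle mean in fibroblasts, higher in 4 of 4 lines. The tables were scaled separately and the difference was not tested. In colonoids 1 of the 3 values at 4 µM rests on 4 reads, and in fibroblasts Tfeb passed the filter only through 2 libraries at 4 µM.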

How the results depend on the processing

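Counts are of members called, then of pathway genes called. Members over all organoid regorafenib libraries went from 1 to 2 with TMM scaling, edgeR, the shallow library left out or all 24 libraries, and to 3 with DESeq2 or FDR 0.05 (Rragd, Tfeb and Fnip1). The share of all genes called rose as well, from 4.97% to 6.08% with TMM scaling, 7.85% with edgeR, 10% without the shallow library, 6.8% with all 24 libraries and 13.6% with DESeq2, and to 1835 genes at FDR 0.05. At 4 µM in colonoids they went from 1 to 2 with the replicate block, TMM scaling, edgeR, DESeq2, the shallow library left out or all 24 libraries, where the share of all genes went from 7.01% to between 8.13% and 12.2%, and at 4 µM in tumoroids to 3 with DESeq2 (2.82% to 9.69%). Without the filter on low values they fell from 1 to 0 between doses, for 5-FU and for the fibroblast combination. For 10 µM against 4 µM in fibroblasts they went from 0 to 1 with the replicate block (0.145% to 6.02%) and DESeq2 (1.82%). Leaving out each line gave 0 to 2 members at 4 µM and 1 to 3 at 8 µM in colonoids, 0 to 1 at 4 µM in tumoroids, between doses and for 5-FU, and 0 to 0 for the combination.

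Pathway genes over all organoid regorafenib libraries went from 12 to 19 with edgeR, 24 with DESeq2, 21 without the shallow library and 21 at FDR 0.05, beside the shares of all genes above, and for genotype in vehicle from 0 to 1 at FDR 0.05 and a 1.5-fold limit (0.141% to 1.39%). The share of all genes called is given after each count from here on. At 4 µM in colonoids the 8 (7.01%) became 5 without the filter (1.39%), 15 with TMM scaling (8.47%), 16 with edgeR (8.13%), 17 with DESeq2 (12.2%) and 17 without the shallow library (9.58%). At 8 µM in colonoids the 21 (13.3%) became 34 with edgeR (18.3%), 33 with DESeq2 (21.9%) and 32 without the shallow library (22.3%). At 4 µM in tumoroids the 8 (2.82%) became 4 without the filter (0.389%), 13 with TMM scaling (3.98%), 16 with edgeR (5.89%), 22 with DESeq2 (9.69%) and 20 without the shallow library (9.49%). At 8 µM in tumoroids the 14 (4.88%) became 7 without the filter (0.775%), 27 with DESeq2 (12%) and 30 without the shallow library (11.7%). Between doses the 1 (0.451%) became 0 without the filter (0.0136%), 3 with DESeq2 (2.81%) and 2 with all 24 libraries (0.848%). Without the filter, 5-FU went from 2 (2.35%) to 1 (0.365%) and fibroblasts from 1 to 0 at 4 µM (1.02% to 0.314%) and under the combination (1.66% to 0.408%). Leaving out each line gave 4 to 16 over all regorafenib libraries, 2 to 10 and 11 to 22 in colonoids, 0 to 21 and 1 to 30 in tumoroids, 0 to 0 between doses, 0 to 2 for 5-FU, and in fibroblasts 0 to 1 at 4 µM, 1 to 3 at 10 µM and 0 to 0 for the combination. The causes were not tested.

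TMM scaling moved the median of all genes at 4 µM in colonoids from -0.22 to -0.05. No called log2 fold change of a member or named pathway gene turned sign under the alternatives run. With the replicate block (the line), no call changed among members other than those named above. Of 135 orderings of 2 members within a vehicle group by level per kilobase, 126 were kept when the longest transcript replaced the union of exons. At unchanged limits and over all genes, the 563 called for regorafenib in organoids ranged from 397 (no filter) to 1536 (DESeq2) and from 155 to 643 without single lines, the 272 for 5-FU from 139 to 592 and from 26 to 255, and the 809 at 10 µM in fibroblasts from 690 to 1519 and from 358 to 1118. In the shallow library a gene below 39.0 CP20M is under 1 read.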

Other observations

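Tfec, the fourth gene of the MiT/TFE family and known from myeloid cells, was below the filter in both tables. It was at 0 to 4 CP20M in organoids. In fibroblast lines M3, M3(2), M1(2) and M11 it was at 161, 170, 174 and 83 CP20M under vehicle, at 115, 93, 139 and 45 CP20M at 4 µM regorafenib, and at 83, 87, 69 and 28 CP20M with autogramin-2 added; the 3 lines at 10 µM held 59, 75 and 47 CP20M. With autogramin-2 alone the lines held 121, 108, 189 and 89 CP20M. Each line was lower with regorafenib than under vehicle, and with autogramin-2 alone 2 of 4 were lower. The summed macrophage markers were 3058, 1235, 2258 and 8123 CP20M in the same lines under vehicle, 1427, 758, 1129 and 2749 CP20M at 4 µM, 714, 651 and 671 CP20M at 10 µM, and 2378, 880, 2337 and 5223 CP20M with autogramin-2 alone, and their part in the Tfec values was not tested.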
